A study of Homo sapiens with 14 samples.

Results

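The stretch described here is a 1600 kb window of chromosome 1, chr1:13900000-15500000 in build hg19, that holds the genes PRDM2 (14.03 to 14.15 Mb) and KAZN (14.93 to 15.44 Mb). It was chosen on measured values, as one of the windows with most ATAC-seq peaks gained when PAX3-FOXO1 was expressed in LHCN cells. For that contrast the values below are therefore a description with no test. The peaks of the 14 libraries merged into 308 regions in the window, of 410350 in the genome, from 922 of 1971391 peaks.

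PRDM2 encodes a nuclear protein of the PR-domain family, with zinc fingers and a histone methyltransferase domain, and is known as a candidate tumour suppressor. It is transcribed from more than 1 promoter, and the product of the inner promoter lacks the PR domain. KAZN encodes kazrin, a cytoplasmic protein known from cell junctions and the cytoskeleton of keratinocytes. PAX3-FOXO1, the fusion protein of alveolar rhabdomyosarcoma, joins the DNA-binding paired domain and homeodomain of PAX3 to the activating part of FOXO1. It is known for binding and opening chromatin away from promoters. ATAC-seq reads open chromatin through the insertion of adapters by the Tn5 transposase, so a peak is a stretch of accessible DNA. Neither the RNA nor the protein of PRDM2 or KAZN was measured here.

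The 14 libraries form 7 groups of 2, each library from 100000 cells of an established human line. LHCN cells are immortalised human myoblasts, and were made to express PAX3-FOXO1 or given the vector alone, in both cases for 72 h. RH30 cells come from an alveolar rhabdomyosarcoma and make the fusion from their own genome. In 1 experiment they were kept in 200 nM QC6352, which inhibits KDM4 demethylases, or in 0.1% DMSO as solvent, for a time that the labels do not clearly state. In another they expressed for 72 h the hairpin shKDM4B-813 or shKDM4B-814, both aimed at KDM4B, or the control hairpin shCtrl. KDM4B removes methyl groups from histone H3. The labels do not say how strongly PAX3-FOXO1 was expressed or KDM4B depleted, nor whether the libraries of a group came from separate cultures. P-values below therefore measure only the spread between libraries, which may be technical.

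The labels of the 6 hairpin libraries conflict with the peak names inside their files. The 2 libraries labelled shCtrl carry peaks named sh813, those labelled shKDM4B-813 carry peaks named sh814, and those labelled shKDM4B-814 carry peaks named shCtrl. None of the other 8 libraries conflicts (0 of 8). Groups follow the labels below, and the main hairpin results are also given with the groups set by the peak names. In lists of equal length the libraries labelled shKDM4B-814 were most like the DMSO libraries, with a mean Jaccard index of region presence of 0.569 (0.547 to 0.595 over pairs of libraries). The libraries labelled shKDM4B-813 followed at 0.527 (0.514 to 0.544) and those labelled shCtrl at 0.445 (0.441 to 0.45). Which naming is right was not settled.

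The deposited lists held 93488 to 176899 peaks, and sequencing depth is unknown. A peak absent from a list did not pass the authors' limit, whose lowest −log10 q lay between 2.0 and 2.6. Since lists differed in length, they were trimmed to equal length within an experiment by strength, to 170390 peaks in LHCN, 105136 for QC6352 and DMSO, and 93488 for the hairpins. The strength of a peak is given as its percentile by −log10 q within its deposited list, before trimming, where 100 is the strongest. Because these lists differ in length, most of all in RH30, like percentiles in different lists can stand for different ranks. Fold values are the authors' enrichment over background and describe a peak within its list only.

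Promoter sequences of PRDM2 and KAZN are shown because the window holds both genes. They come from RefSeq on GRCh38.p14, on the plus strand, from 250 bases before to 50 after a start. The first is the outer PRDM2 promoter at chr1:13699938-13700237, the second an inner PRDM2 promoter at chr1:13749165-13749464, and the last a KAZN promoter at chr1:14598435-14598734, all in GRCh38.p14. Capitals mark CAGCTG, an E-box of the kind that myogenic factors bind.
PRDM2 outer promoter: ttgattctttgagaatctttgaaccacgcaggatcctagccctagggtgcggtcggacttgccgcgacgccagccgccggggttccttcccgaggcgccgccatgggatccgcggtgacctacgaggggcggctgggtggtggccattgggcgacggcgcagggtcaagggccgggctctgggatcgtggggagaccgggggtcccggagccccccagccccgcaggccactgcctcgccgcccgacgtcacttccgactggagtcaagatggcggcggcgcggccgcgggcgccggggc
PRDM2 inner promoter: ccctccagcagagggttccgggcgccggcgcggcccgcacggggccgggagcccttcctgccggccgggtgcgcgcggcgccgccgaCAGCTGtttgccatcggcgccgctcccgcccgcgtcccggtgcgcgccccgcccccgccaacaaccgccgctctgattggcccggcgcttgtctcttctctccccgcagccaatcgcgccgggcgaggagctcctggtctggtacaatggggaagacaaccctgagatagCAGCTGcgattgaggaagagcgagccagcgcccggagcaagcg
KAZN promoter: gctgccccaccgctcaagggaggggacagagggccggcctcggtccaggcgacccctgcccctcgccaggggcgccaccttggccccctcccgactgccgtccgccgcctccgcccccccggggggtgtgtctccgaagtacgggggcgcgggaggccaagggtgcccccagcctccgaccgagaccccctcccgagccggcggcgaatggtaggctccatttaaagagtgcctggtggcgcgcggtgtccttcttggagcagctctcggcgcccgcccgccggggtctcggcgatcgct

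These 3 were picked from 3 PRDM2 and 4 KAZN promoters in the table after their values were seen. They are rich in G and C, at 72.0%, 73.7% and 75.0%, against a median of 58.7% over 35116 promoters of the same length. They hold 36, 41 and 33 CpG sites, against a median of 14. Of the promoters not shown, the remaining PRDM2 one has 38.7% G and C and 5 CpG sites, and the remaining KAZN ones have 78.0%, 50.3% and 54.7% with 46, 10 and 9 CpG sites. Of the motifs ATTNGTCAC and GTCACGG (paired domain), TAATTA (homeodomain), GTAAACA (forkhead), CAGCTG and CAGGTG (E-boxes), TGANTCA (AP-1) and GGAATG (TEAD), searched on both strands, the outer PRDM2 promoter and this KAZN promoter hold none. The inner PRDM2 promoter holds 2 copies of CAGCTG, which 17.95% of all promoters hold at least once. Of those not shown, the PRDM2 promoter holds no motif searched. The 3 KAZN promoters hold GGAATG (14.03% of all promoters), GTAAACA (3.42%) with TGANTCA (7.71%), and CAGCTG. Because the peaks are in another build, no promoter could be placed on a peak, and no sequence of a peak was used here. RefSeq places no protein-coding gene between PRDM2 and KAZN, with PDPN before PRDM2 and TMEM51 after KAZN. Its model of KAZN on GRCh38.p14 is longer than the KAZN interval above and begins closer to PRDM2, so the stretch between the intervals is not called intergenic here.

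In LHCN the window held more peaks with PAX3-FOXO1 than with vector. The deposited vector lists held 120 and 110 peaks there and the PAX3-FOXO1 lists 185 and 166, which is 115.0 ± 7.07 against 175.5 ± 13.4 (mean ± SD, n = 2). The vector and PAX3-FOXO1 libraries did not overlap, but this contrast chose the window, so nothing is read from the separation. In RH30 the window was sparse, with 23 and 34 peaks with DMSO, 24 and 45 with QC6352, 45 and 61 in the libraries labelled shCtrl, 30 and 37 in those labelled shKDM4B-813, and 23 and 19 in those labelled shKDM4B-814. Every RH30 list therefore held fewer window peaks than either vector list, also for its length (0.0203% to 0.0417% of a list's peaks, against 0.0635% and 0.0686%). With all 14 lists trimmed to the 93488 strongest peaks, the window held 59 and 55 peaks with vector, 100 and 88 with PAX3-FOXO1, and 9 to 27 in the 10 RH30 libraries.

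The stretch of equal length after the window differed in this respect. There the trimmed lists held 127 to 142 peaks in LHCN and 141 to 292 in RH30, so the RH30 range lay mostly above that of LHCN. In the stretch of equal length before the window they held 32 to 40 in LHCN and 15 to 22 in RH30. The low number of RH30 peaks was thus shared with the left flank and not with the right.

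**Figure D1:**
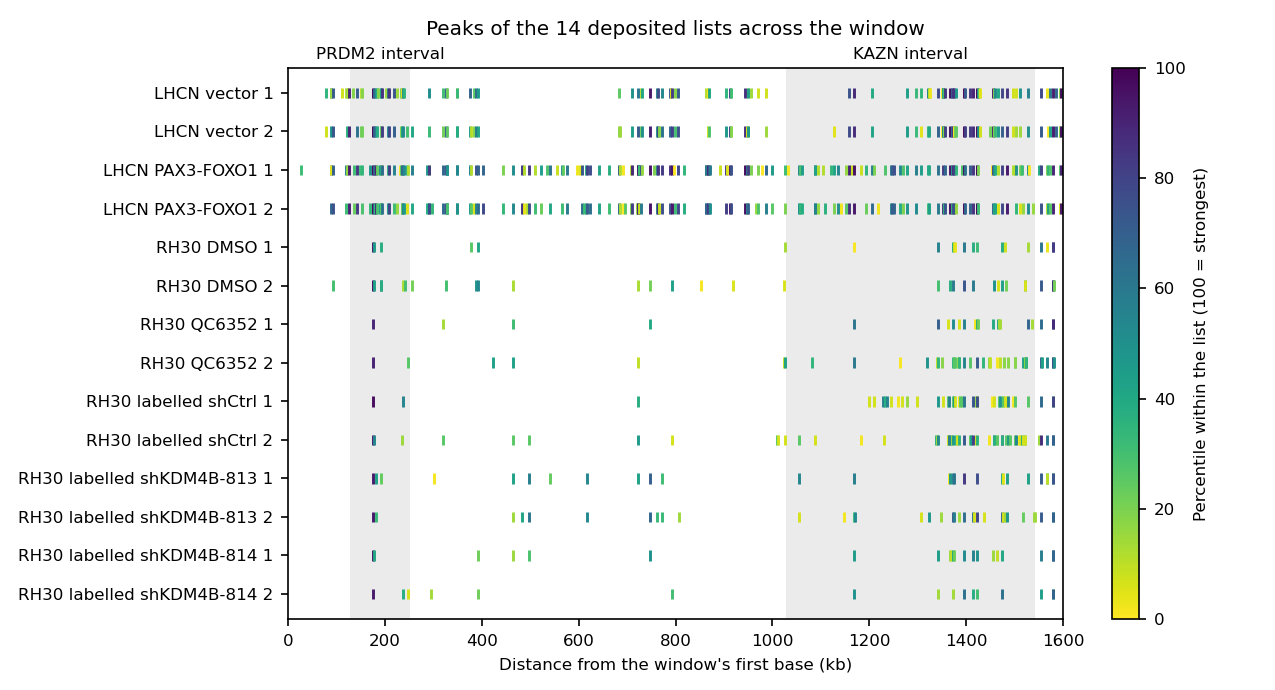
Peaks of each deposited list (rows) against the distance in kb from the window's first base, coloured by percentile within the list, with the PRDM2 and KAZN intervals shaded. The PAX3-FOXO1 rows fill stretches that are blank with vector, while the RH30 rows hold few peaks before the KAZN interval and more toward its end.

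Of 308 regions, 163 had peaks in LHCN only, 87 in RH30 only and 58 in both lines. Of the 87 regions of RH30 alone, 70 lay in the KAZN interval and 68 were in a single library. Only chr1:15477803-15478302, just after the KAZN interval, was in all 10 RH30 libraries and in no LHCN library. In the stretch between the PRDM2 and KAZN intervals 77 of 103 regions were in LHCN only. These counts use the lists as deposited, which differ in length. The same counts over the genome were not computed, so none is read as a trait of the window.

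The strongest region of every library was the same, chr1:14075066-14076703 in the PRDM2 interval. It stood at percentile 99.7 to 99.8 in the 4 LHCN lists, at ranks 562 and 600 with vector and 437 and 348 with PAX3-FOXO1. In RH30 it stood at 94.7 and 97.7 with DMSO and at 89.5 and 90.7 with QC6352. The libraries labelled shCtrl had it at 96.7 and 93.6, those labelled shKDM4B-813 at 92.8 and 93.2, and those labelled shKDM4B-814 at 95.2 and 92.9. Both QC6352 libraries thus lay below all other RH30 libraries for this peak, also by rank (11164 and 16052, against 2902 to 9963). How often this holds over all regions was not computed, so it is not read as an effect of QC6352. With 2 libraries against 2 no p below 0.333 is possible.

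A second region, chr1:14025955-14027452, lies at the 14.03 Mb (rounded) where the PRDM2 interval starts. It was held by all 4 LHCN lists, at 89.3 and 89.8 with vector and 92.2 and 90.9 with PAX3-FOXO1. None of the 10 deposited RH30 lists held it. The region at the 14.93 Mb (rounded) where the KAZN interval starts, chr1:14925080-14925959, was absent with vector and weak with PAX3-FOXO1, at 31.3 and 19.6. Neither region is assigned to a transcript start here.

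The other 4 regions found in all 14 lists lay in the later part of the window. Within KAZN, chr1:15294510-15295798 stood at 98.6 to 98.7 with vector, 96.6 and 98.2 with PAX3-FOXO1, and 52.4 to 83.7 in RH30. Also in KAZN, chr1:15270908-15272724 ranged from 74.3 to 87.7 in LHCN and from 13.7 to 73.7 in RH30. Beyond KAZN, chr1:15454955-15455341 and chr1:15478582-15480882 were in all 14 lists as well, the latter at 89.1 to 91.8 in LHCN and 67.0 to 88.6 in RH30. The regions common to all 14 lists thus lay at 1 PRDM2 region, in the later KAZN interval and just after it. What share of regions over the genome is in all 14 lists was not computed.

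In LHCN the trimmed lists gave 214 regions in the window. A region is called gained when both PAX3-FOXO1 libraries and no vector library held a peak, and lost in the reverse case. By this rule 50 regions (23.4%) were gained, against 8.13% of all 234240 LHCN regions, and 6 (2.8%) were lost, against 8.44%. A further 80 were in all 4 lists, and 78 were in 1 to 3 lists with no call. The gain is what the window was chosen for, and nothing is read from its size. Without 1 or the other PAX3-FOXO1 or vector library, 10 to 15 regions were lost (12 and 10 without the first and second PAX3-FOXO1 library, 10 and 15 without the first and second vector library). The flank of equal length before the window had 2 gained and 8 lost of 87 regions, and the flank after it 9 gained and 21 lost of 286.

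The gains lay mostly outside the PRDM2 interval. The stretch between the intervals held 31 of the 50, among 89 regions with 0 lost. KAZN held 15 of 74 with 2 lost, PRDM2 3 of 30 with 1 lost, the part after KAZN 1 of 11 with 2 lost, and the part before PRDM2 had 0 of 10 with 1 lost. Along the window the gains came in runs: in bins of 100 kb, gains were 6 of 7 regions from 14.3 Mb, 5 of 9 from 14.4 Mb, and 7 of 7 from 14.9 Mb, where no region was in all 4 lists. From 15.2 Mb to the end 2 of 56 regions were gained.

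**Figure D2:**
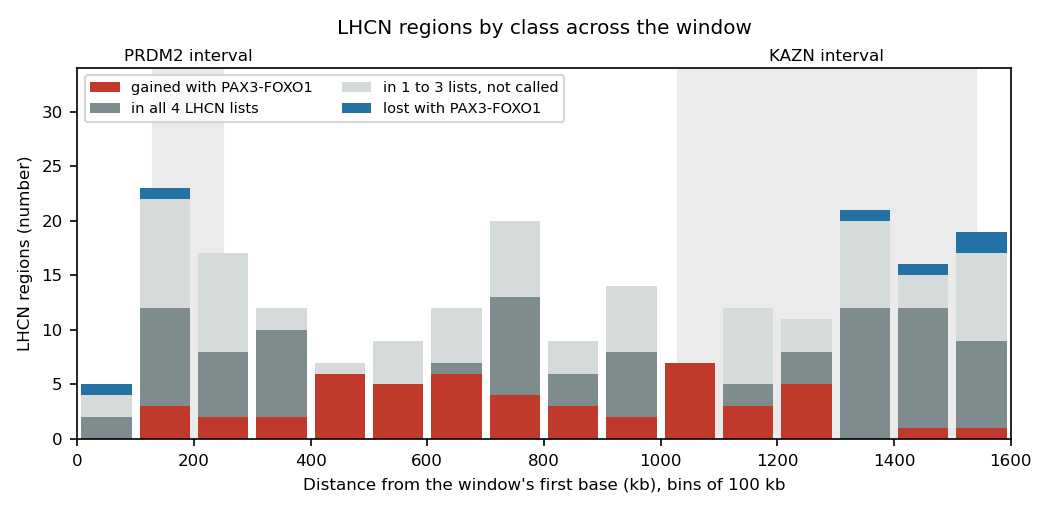
Number of LHCN regions per 100 kb bin by class: gained or lost with PAX3-FOXO1, present in all 4 lists, or uncalled. The bins starting 400, 500 and 1000 kb from the window's first base, hold gained but no shared regions, and the last 3 bins hold 2 gains in all.

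A part of the gains filled stretches in which neither deposited vector list had a peak. The longest such stretch inside the window, chr1:14292609-14582282 (290 kb, between the intervals), held 23 and 21 peaks in the PAX3-FOXO1 lists, with 17 regions common to both. Of the 193480 vector-free stretches of the genome 12, this one included, held as many or more. That count makes no allowance for length, and the window was chosen for such gains, so nothing is read from it. A second, chr1:14887742-15026897 (139 kb), reaches into the KAZN interval and held 12 and 11 peaks. Another within KAZN, chr1:15105955-15176662 (70.7 kb), held 9 and 7. In RH30 the 290 kb stretch was nearly empty, with 0 and 1 peaks with DMSO, 1 and 2 with QC6352, 0 and 2 in the libraries labelled shCtrl, 4 and 4 in those labelled shKDM4B-813, and 2 and 1 in those labelled shKDM4B-814.

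Most of the 50 gained regions stood below percentile 50 in at least 1 PAX3-FOXO1 list. The lower of their 2 PAX3-FOXO1 percentiles ran from 3.7 to 83.5 with a median of 38.2, against 24.0 over all gained regions, and 15 of 50 (30.0%) reached 50, against 16.3%. Their median width was 309.5 bp, compared with 428.0 bp for the regions in all 4 lists. Of the 50, 49 had no peak in either vector list as deposited.

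The strongest gain, chr1:14381768-14382573, had no vector peak and stood at 83.5 and 84.4 with PAX3-FOXO1, with folds of 19.1 and 26.3. Close to it, chr1:14398072-14398453 stood at 83.8 and 75.3, and chr1:14517067-14517349 at 81.2 and 72.2. All 3 lie in the 290 kb stretch that is free of vector peaks, as do chr1:14301449-14301844 (67.8 and 77.9), chr1:14507641-14508130 (72.3 and 65.1) and chr1:14522190-14522738 (76.5 and 64.3).

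A neighbouring pair of gains lay further on at chr1:14621443-14621953 (82.4 and 76.7) and chr1:14622712-14623139 (83.1 and 72.7). Another pair lay in KAZN, in the 70.7 kb stretch free of vector peaks, at chr1:15146604-15147172 (71.6 and 71.1) and chr1:15150628-15151128 (75.4 and 68.6). These 10 are the strongest gains by the lower percentile. The 3 gains in the PRDM2 interval ranked below these 10, the strongest of them chr1:14089229-14089491 at 53.2 and 43.7.

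None of the 6 lost regions lay between the intervals. The strongest, chr1:15485161-15485654 after KAZN, stood at 66.9 and 68.5 with vector. Within KAZN, chr1:15252704-15253052 stood at 39.1 and 50.2, and chr1:15327753-15328201 at 4.6 and 7.3. The others were chr1:13977768-13978185 (35.1 and 7.3), chr1:14050279-14050544 in PRDM2 (10.8 and 21.7) and chr1:15498910-15499409 (40.8 and 51.3). The losses in PRDM2 and at 15327753 were thus weak in both vector lists.

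The regions already open with vector moved in the same places. Of the 80 regions in all 4 lists, 40 (50%) ranked higher in both PAX3-FOXO1 libraries than in both vector libraries, against 28.2% of 111752 such regions, and 22 (27.5%) ranked lower in both, against 39.4%. The median change of the mean percentile was 4.2 points, against -1.4. Between the intervals 26 of 28 ranked higher and 0 lower, with a median of 21.1 points. In the PRDM2 interval 5 of 13 ranked higher and 4 lower (median -0.1), and in KAZN 7 of 31 higher and 15 lower (median -3.1). These counts come from the contrast that chose the window and are given as a description.

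The largest change was at chr1:14767154-14767623 between the intervals, which stood at 2.6 and 7.3 with vector and 88.9 and 83.8 with PAX3-FOXO1. It was thus among the weakest peaks of the vector lists and among the strong ones with the fusion. Nearby, chr1:14814053-14814531 went from 30.5 and 18.3 to 74.8 and 76.7, and chr1:14887460-14887772 from 7.3 and 14.5 to 66.9 and 56.9. A region that was strong with vector, chr1:14843524-14844529, went from 85.8 and 85.7 to 97.4 and 95.8.

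Inside PRDM2 the direction varied over short distances. The region chr1:14081097-14081568 stood at 48.4 and 58.2 with vector and 90.5 and 87.3 with PAX3-FOXO1. In the opposite direction, chr1:14118913-14119278 stood at 73.6 and 70.0 with vector and 56.0 and 31.4 with PAX3-FOXO1. The KAZN interval divided near 15.2 Mb, a point chosen after the values were seen. From there to the end of the window 3 of 31 shared regions ranked higher and 18 lower, among them chr1:15269231-15269972 (70.3 and 62.2 to 46.2 and 33.8) and chr1:15354475-15354999 (91.3 and 89.1 to 76.5 and 69.9). From 14.2 to 15.2 Mb 29 of 32 ranked higher and 0 lower. The flank after the window leaned the same way as its last part, with 21 of 158 shared regions higher and 89 lower.

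**Figure D3:**
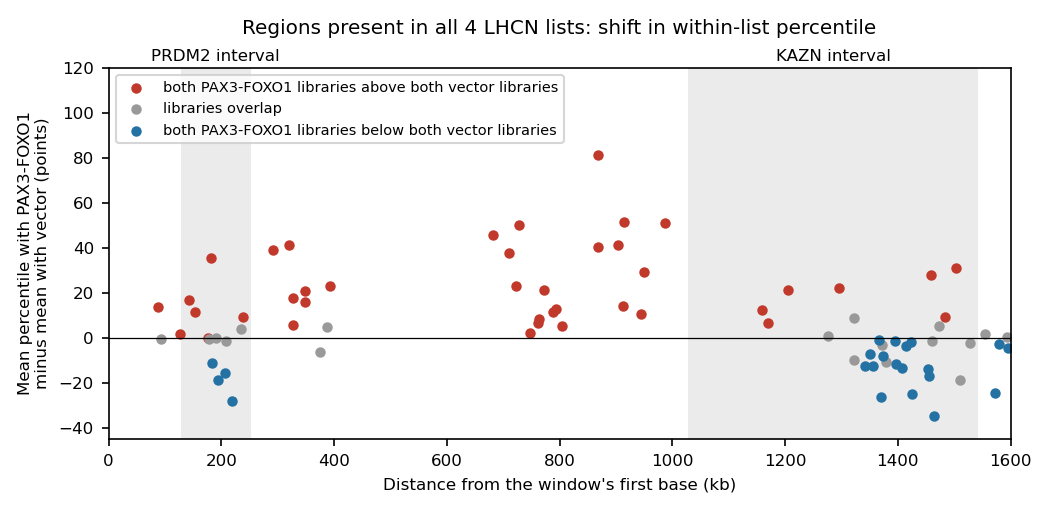
Each point is a region in all 4 LHCN lists, placed by its distance in kb from the window's first base. The vertical axis is the mean percentile with PAX3-FOXO1 minus that with vector. Points between the shaded intervals lie mostly above 0, with none called lower, and those from 1300 kb on lie mostly below 0.

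RH30 makes PAX3-FOXO1 itself. The rule that chose the window used no RH30 value, although it was written with earlier results of these data known. The counts are a description with no test. For this look-up the RH30 lists were trimmed to 93488 peaks. A peak in any of the 10 RH30 lists was found at 6 of the 50 gained regions (12.0%), against 46.6% of the 19045 gained regions of the genome. Per library the share was 0.0% to 8.0%, against 18.1% to 30.8%. With lists as deposited 9 of the 50 had an RH30 peak. The share in the window was thus below that over the genome in each of the 10 libraries.

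The stronger gains had a low share too. Of the 15 gained regions at percentile 50 or more, 5 (33.3%) had a peak in any RH30 list, against 69.5% of 3109 such regions. In the DMSO libraries it was 0 of 15, against 52.5% over the genome. The shared regions also had a low share: of the 80 shared regions 34 (42.5%) had a peak in any RH30 list, against 67.0%, and 7.5% to 21.2% per library, against 35.8% to 50.1%. Between the intervals 8 of 28 shared regions had an RH30 peak, and in KAZN 18 of 31. None of the 6 lost regions had one (0.0%, against 16.2%).

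**Figure D4:**
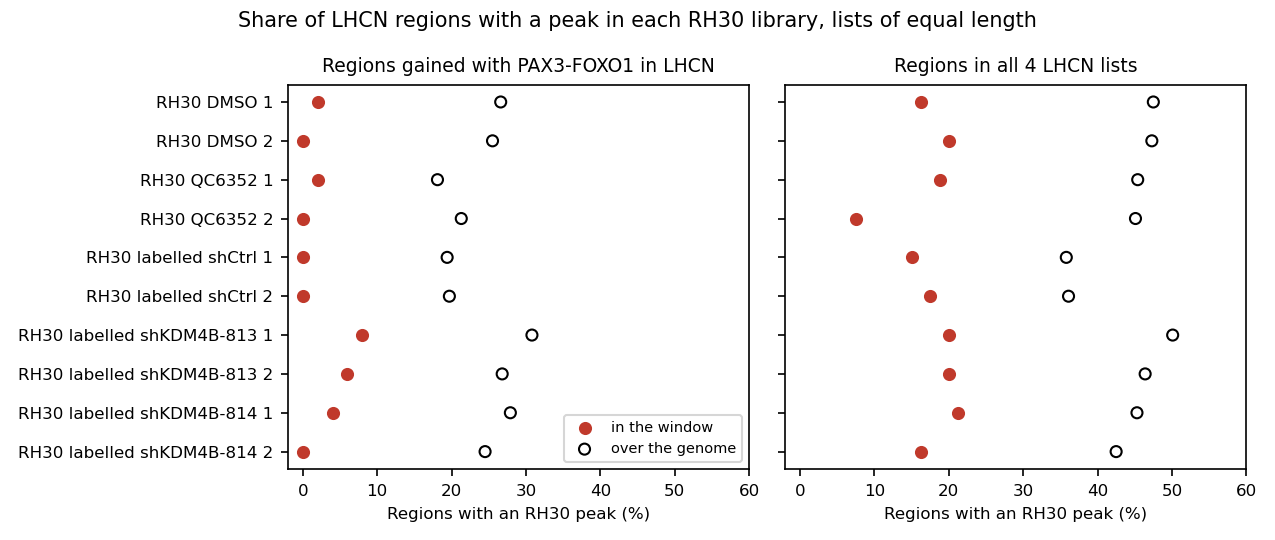
Share of LHCN regions (horizontal axis, percent) with a peak in each RH30 library (rows), for gained regions (left) and regions in all 4 LHCN lists (right), with filled points for the window and open points for the genome. In every RH30 library the filled point lies left of the open one, at 0.0% to 8.0% for gained regions.

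The 6 gained regions with an RH30 peak lay between the intervals except for 1 in KAZN. The region chr1:14363545-14364585 had weak peaks, in 7 RH30 lists as deposited and in 3 of the trimmed ones. They stood at 12.7 in 1 DMSO library, 31.0 and 42.3 with QC6352, 25.8 in 1 library labelled shCtrl, 42.6 and 14.5 in those labelled shKDM4B-813, and 15.2 in 1 labelled shKDM4B-814. In the deposited lists chr1:14398072-14398453 had peaks in both libraries labelled shKDM4B-813 (57.1 and 61.1), 1 labelled shKDM4B-814 (28.8) and 1 labelled shCtrl (25.8). Both libraries labelled shKDM4B-813, and no other RH30 library, held chr1:14517067-14517349, at 54.1 and 53.0. The strongest gain, chr1:14381768-14382573, was held by 1 library labelled shKDM4B-813, at 40.7. In the trimmed lists chr1:14925080-14925959 and, in KAZN, chr1:14953708-14954017 were held by 1 library each. No gained region had a peak in both DMSO libraries.

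Few regions of the window were called with QC6352, and RH30 held few regions there in all. In the pair of RH30 groups with lists of 105136 peaks, 50 regions lay in the window, of which 1 (2.0%) was gained with QC6352, against 6.5% of 171088 regions, and 5 (10.0%) were lost, against 7.28%. Both shares rest on 5 or fewer regions, so no difference from the genome is read from them. The gained one, chr1:14363688-14364240 at 31.0 and 42.3, lies in a region gained in LHCN, and 1 deposited DMSO list held a weaker peak there. The lost regions were chr1:14078170-14078419 and chr1:14091013-14091249 in PRDM2, chr1:14292337-14292589 between the intervals, and chr1:15314700-15315014 and chr1:15373045-15373244 in KAZN. They stood at 37.0 to 63.5 in the DMSO lists, and all 4 LHCN lists held each of them. With fewer libraries that must be alike most counts rose. Gains were 7 and 12 without the first and second QC6352 library and 3 without the first DMSO library. Losses were 8 without the first QC6352 library and 16 and 9 without the first and second DMSO library.

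In lists trimmed to 93488 the window held 18 and 22 peaks with DMSO and 21 and 9 with QC6352, a difference of -5.0 peaks (exact permutation test, two-sided, p = 0.667). The libraries of the groups overlapped. The second QC6352 library decided the sign, which was 1.0 without it, and with lists as deposited the difference was 6.0. The share of the 50 LHCN-gained regions with a peak was 2.0% and 0.0% with DMSO and 2.0% and 0.0% with QC6352, a difference of 0.0 points (exact permutation p = 1.0). With lists as deposited it was 1.0 point. Over all gained regions of the genome the shares were 26.6% and 25.5% with DMSO and 18.1% and 21.3% with QC6352. In the window each of these libraries held a peak at 1 or 0 of the 50 regions. A fall of that kind could therefore not show there.

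The hairpin lists gave 59 regions in the window. By the labels, 7 (11.9%) were gained in the libraries labelled shKDM4B-813 against those labelled shCtrl, with 11.0% over 174293 regions, and 3 (5.08%) were lost, with 7.08%. In the libraries labelled shKDM4B-814, 2 (3.39%) were gained, against 5.77%, and 3 (5.08%) lost, against 5.81%. For both hairpins at once, which share the control libraries, 1 (1.69%) was gained, against 3.46%, and 2 (3.39%) lost, against 4.54%. The shares were thus near or under those of the genome, by the labels. Without the first library labelled shCtrl the losses by the labels were 13 for shKDM4B-813, 13 for shKDM4B-814 and 11 for both, and without the second 14, 14 and 12. Without the first library labelled shKDM4B-813 its gains were 11, and without the first or second labelled shKDM4B-814 its gains were 5 or 8. For both at once the gains were 3 without the second library labelled shKDM4B-814 and 2 without the second labelled shCtrl.

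With the groups set by the peak names, the libraries named sh813 had 3 (5.08%) gained and 2 (3.39%) lost, against 5.81% and 5.77%. The libraries named sh814 had 4 (6.78%) gained and 2 (3.39%) lost, against 4.79% and 2.58%. Both shares for sh814 were thus above those of the genome, on 4 or fewer regions. Both hairpins together had 0 (0.0%) gained and 1 (1.69%) lost, against 0.208% and 1.1%. The 1 loss is chr1:14292377-14292624 between the intervals, at 22.0 and 22.1 in the libraries named shCtrl. The libraries labelled shKDM4B-814 and shCtrl are those named shCtrl and sh813, so every call between them reverses by construction. The regions concerned are named here for that reason only. In KAZN, chr1:15264036-15264461 and chr1:15386574-15386888, which no LHCN list holds, were lost with both hairpins by the labels and gained with sh813 by the peak names. Likewise chr1:14623232-14623620 between the intervals was lost in the libraries labelled shKDM4B-814 and gained with sh813 by the peak names. At chr1:15264036-15264461, 1 deposited list labelled shKDM4B-813 held a weaker peak, at 1.2. In reverse, chr1:15068700-15069121 in KAZN, the 1 region gained with both hairpins by the labels, was lost with sh813 by the peak names. The 1 region lost with both by the peak names, chr1:14292377-14292624, was gained in the libraries labelled shKDM4B-814.

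The regions gained in the libraries labelled shKDM4B-813 included 2 that PAX3-FOXO1 gained in LHCN, chr1:14398089-14398499 (57.1 and 61.1) and chr1:14517078-14517344 (54.1 and 53.0). Under the peak names, where these libraries are sh814, the latter was also gained. For the former, 1 library named shCtrl held a peak, so it was not called by that naming. The other 5 were held by all 4 LHCN lists: chr1:14647055-14647392 (69.6 and 67.1), chr1:14672510-14672921 (31.2 and 32.5), chr1:14081164-14081534 in PRDM2 (42.6 and 32.5), and chr1:15068700-15069121 (57.1 and 32.5) and chr1:15383395-15383693 (42.6 and 47.6) in KAZN. Of these 5, the ones at 14672510, 14081164 and 15383395 were also gained with sh814 by the peak names, and those at 14647055 and 15068700 were not. Deposited lists labelled shCtrl held weaker peaks at chr1:14398089-14398499 (25.8) and chr1:15383395-15383693 (6.8), 1 list each. By the labels, chr1:15068700-15069121 was also gained in the libraries labelled shKDM4B-814, at 45.1 and 49.5. Those libraries gained chr1:14292377-14292624 too and lost chr1:14623232-14623620, which stood at 37.2 and 45.7 in the libraries labelled shCtrl. A further KAZN region, chr1:15241888-15242170, was lost in the libraries labelled shKDM4B-813, from 46.7 and 53.6, and by the peak names was likewise lost with sh814.

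The number of window peaks was 27 and 27 in the libraries labelled shCtrl, 24 and 22 in those labelled shKDM4B-813, and 22 and 19 in those labelled shKDM4B-814. The difference of hairpins from control was -5.25 peaks by the labels, and all 4 hairpin libraries were below both controls (exact permutation test, two-sided, p = 0.0667, the smallest that 15 label sets allow). By the peak names it was 4.5 (exact permutation p = 0.2), so the sign depends on which naming holds. With lists as deposited, which differ in length, the difference by the labels was -25.75 (exact permutation p = 0.0667). The sign turned with other peak limits, to 4.25 with peaks of −log10 q of 10 or more and to 0.75 with the 50000 strongest peaks. By the labels, the stretch of equal length after the window differed in the same direction. There the trimmed lists labelled shCtrl held 292 and 257 peaks. Those labelled shKDM4B-813 held 141 and 162, and those labelled shKDM4B-814 held 148 and 156. In the stretch before the window the numbers were 19 and 21, 19 and 18, and 22 and 19. The lower number was thus not particular to the window.

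The share of LHCN-gained regions with a peak was 0.0% in both libraries labelled shCtrl, 8.0% and 6.0% in those labelled shKDM4B-813, and 4.0% and 0.0% in those labelled shKDM4B-814. Over all gained regions of the genome the same libraries had 19.4% and 19.7%, 30.8% and 26.8%, and 27.9% and 24.5%, so the order of the groups was similar there. In the window the difference was 4.5 points (exact permutation p = 0.333), and by the peak names 1.5 points (exact permutation p = 0.8). With lists as deposited it was 0.0 points by the labels. Over both RH30 experiments, with labels permuted within each, the KDM4-perturbed libraries differed from their controls by 2.25 points (exact permutation p = 0.289 over 90 label sets), or by 0.75 points by the peak names (exact permutation p = 0.789). No difference of QC6352 or the hairpins at the regions gained in LHCN was thus detectable in this design.

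At the edges of the window, the outermost region inside on the left was chr1:13926624-13926840, in 1 library, and the first outside was chr1:13870554-13870753, in 1 library. On the right chr1:15498910-15499409, in 2 libraries, lay inside and chr1:15500872-15501317, in 1 library, outside.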

How the data were processed

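ATAC-seq peak lists of 14 libraries were used, 1 list per library, in hg19. The submitters' processing notes name MACS2 2.1.1, SAMtools 1.3.1, Picard 1.65 and BWA 0.7.12-r1039. Their settings, and any shift for Tn5, were not given in the sources used here. For each peak the authors deposited a score, which was not used, a fold ratio over background, and −log10 p and −log10 q values, of which −log10 q ranked the peaks, then fold, then position.

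Lists were trimmed to equal length within each experiment and merged into regions. An overlap of at least 1 bp counted as presence of a library in a region, and regions were assigned to intervals by their middle. Differences between RH30 groups were tested by exact permutation of the libraries. The code for the calls was run on simulated lists seeded by the same calling rule, which checks the code and gives no error rate. The window, its members and the lists were chosen with earlier results of these data known. Regions named are, per comparison and direction, up to 10 with the highest lower-of-2 percentile, the strongest of each library and those in all 14 libraries. The shared regions, other gains and 2 regions at interval starts were picked after their values were seen. Grouping by peak names was added after seeing the data. Gene starts, cell type markers and motifs in peaks were not analysed here, since no hg19 genome or annotation was used. Analyses used Python 3.11.15, numpy 2.4.6 and pandas 2.3.3.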

Additional observations from a re-analysis of the deposited data

How the results depend on the processing

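By the labels unless stated, the 50 PAX3-FOXO1 gains stayed within 1.5 times under every alternative except the 50000 strongest peaks, with 15, where the losses were 3. Leaving out 1 library gave 55 to 75 gains and 10 to 15 losses. For QC6352, gains were 0 with −log10 q of 10 or more, 0 with the 50000 strongest peaks, 2 with peaks covering 50% of a region, 2 with windows of 250 bases each side of summits, and 1 to 12 without 1 library. Its losses were 2 with −log10 q of 10 or more, 0 with the 50000 strongest, and 5 to 16 without 1 library. For shKDM4B-813 gains were 4 and 1 under those 2 limits and 8 to 11 without 1 library, and losses were 5 with lists as deposited, 0 and 0 under the limits, and 4 to 14. For shKDM4B-814 gains were 0 and 0 and 2 to 8, and losses 6 as deposited, 0 and 0, 5 with 50% coverage, and 3 to 14. For both hairpins gains were 0 and 0 and 1 to 3, and losses 4 as deposited, 0 and 0, and 2 to 12. Grouped by peak names, gains were 3, 4 and 0, and losses for both hairpins 1. Requiring fewer libraries to be alike relaxes the calling rule. Stricter limits gave lower counts in these calls. The causes of these shifts were not tested.

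Gained regions with any RH30 peak were 6, and 3 and 0 under the 2 limits. The peak number difference for QC6352 was 6.0 with lists as deposited and -11.0 to 1.0 without 1 library. For the hairpins it was -25.75 with lists as deposited, 4.25 and 0.75 under the limits, 4.5 by peak names and -6.0 to -4.33 without 1 library. The share differences were 1.0 (QC6352) and 0.0 (hairpins) with lists as deposited, 0.0 (hairpins and pooled) with the 50000 strongest, and -1.0 to 1.0, 3.33 to 6.0 and 1.67 to 3.0 without 1 library. Replicate numbers did not pair the libraries, with correlations of -0.011 to 0.042 between groups. With replicate number as a block the differences were the same, at -5.0 (exact permutation p = 1.0), -5.25 (p = 0.111), 0.0 (p = 1.0), 4.5 (p = 0.333) and 2.25 (p = 0.333), and no call changed. Unknown depth limits every absent peak: it shows only that none passed the limit.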
